A study of Homo sapiens with 4 samples.

Results

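The S100 proteins are small calcium sensors of the EF-hand superfamily. Most of their genes lie on chromosome 1q21, in the epidermal differentiation complex, with genes of the cornified envelope between them. In the epidermis they act inside keratinocytes, where calcium opens a surface that binds annexins, cytoskeletal proteins and transcription factors, and some are secreted as alarmins and antimicrobial proteins that rise in wounded or inflamed skin. The enzyme ALKBH5 strips methyl groups, in the form of m6A, from adenosines of RNA.

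The mRNA of 10 S100 genes was followed in human HaCaT keratinocytes after ALKBH5 knockdown. The genes were S100A2, S100A4, S100A6, S100A7, S100A8, S100A9, S100A10, S100A11, S100A14 and S100A16, taken by exact gene name from the 58735 genes of the deposited count tables, in which 21 gene names start with S100A. HaCaT is a spontaneously immortalised line of skin keratinocytes, so all libraries model 1 line in culture. Both groups were grown in DMEM with serum and transfected with 200 pmol of siRNA by lipofection. The siControl group received a normal control siRNA and is labelled as wild type (2 libraries). The siALKBH5 group received an siRNA against ALKBH5 and is labelled as ALKBH5 knockdown (2 libraries). The labels do not say which ALKBH5 siRNA was used. Effects of the siRNA on other transcripts cannot be told apart here from loss of ALKBH5. Poly-A RNA was sequenced, and the tables held between 16017502 and 18837807 counts per library. The labels do not say whether the libraries came from separate cultures, so p-values measure the spread between these libraries, which may be technical.

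ALKBH5 was the check of the labels. It had 93.7 and 87.5 CPM in siControl and 51.1 and 49.5 CPM in siALKBH5. CPM are counts scaled to a common library size, here with the TMM method of edgeR. The knockdown left 55.5% of the control level (log2 fold change -0.85, SE 0.05, adjusted p = 6.4e-15 by edgeR's quasi-likelihood test with Benjamini-Hochberg adjustment over all tested genes). Fold changes and adjusted p-values below are siALKBH5 over siControl from that fit. The keratinocyte markers KRT5, KRT14, KRT6A, KRT17, TP63, DSG3 and ITGA6 all had at least 254.7 CPM in every library, and KRT16 had 38.9 to 45.3 CPM. Among markers of other cell types, VWF had 18.2 to 26.8 CPM, COL1A1 16.2 to 17.1 CPM and CDH5 8.07 to 14.3 CPM, and DCN, CD14 and PMEL lay between 1.28 and 3.96 CPM. PTPRC had at most 2 counts, PECAM1 at most 1, and TYR, COL1A2 and PDGFRB had 0.

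After ALKBH5 knockdown S100A6 fell the most among the abundant S100 genes, S100A16, S100A10, S100A2, S100A14 and S100A4 rose slightly, and the scarce S100A7 and S100A9 fell. S100A11 and S100A8 did not pass the test. Thus 5 of the 10 genes were higher and 3 were lower at an adjusted p under 0.05. Of all 15075 tested genes, 19.3% were higher and 17.3% were lower by the same test. The same shares are the background for every list of genes below. None of the 10 passed that threshold with a change of 1 or more on the log2 scale in either direction, against 2.92% of all tested genes. At an unadjusted p the same 8 genes and no others lay under 0.05. The median log2 fold change of the 10 genes was 0.14, beside -0.01 over all tested genes. High counts make small changes detectable, and 7 of the 10 genes had a mean of at least 100 CPM. In that class 5 S100 genes were higher and 1 was lower, against 43.5% and 27.0% of the 1819 genes at that level. In bulk RNA a change in the share of cells that make a transcript and a change in RNA per cell cannot be told apart.

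**Figure D1:**
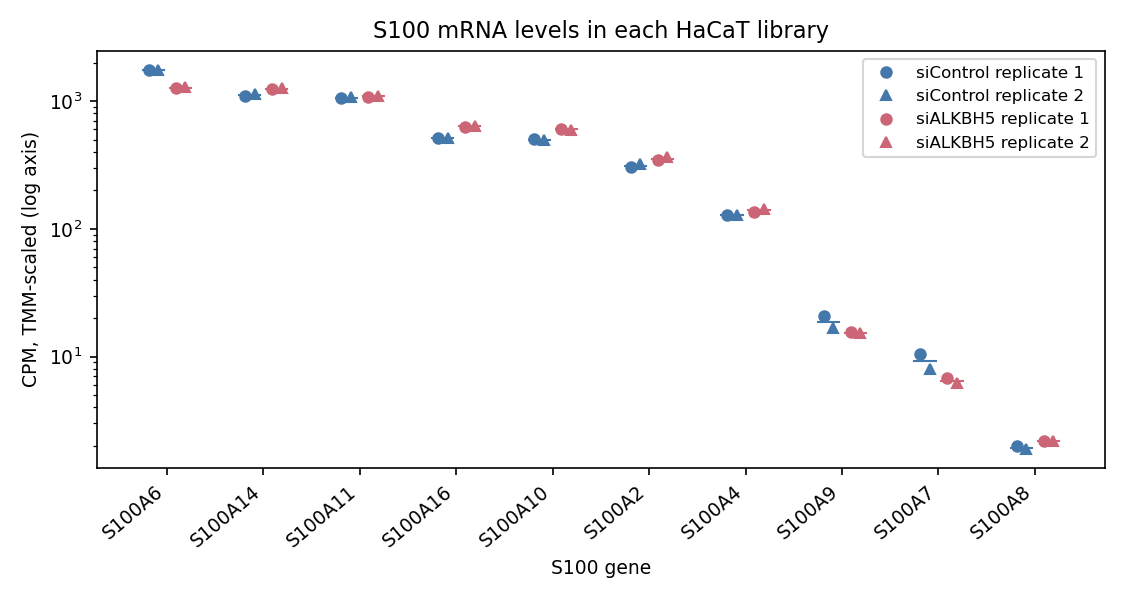
CPM (log axis) of each S100 gene in each library, with circles for replicate 1, triangles for replicate 2 and short lines for the mean of 2 libraries. S100A6 lay at 1747 and 1761 CPM in siControl (blue) and at 1264 and 1289 CPM in siALKBH5 (red), and S100A8 lay between 1.89 and 2.19 CPM in all libraries.

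S100A6, also called calcyclin, is a cytosolic S100 protein of proliferating cells. Its counts were 28190 and 31739 with control siRNA and 23639 and 21238 with ALKBH5 siRNA, or 1746.9 and 1761.4 against 1263.7 and 1288.6 CPM. The siALKBH5 libraries lay well below both siControl libraries, and the replicates differed by far less than the groups. The mean fell from 1754 ± 10.2 to 1276 ± 17.6 CPM (SD, n = 2), to 72.8% of control (log2 fold change -0.46, SE 0.02, adjusted p = 2.6e-20 by edgeR). S100A6 ranked 50th of all tested genes by mean CPM, and 9.04% of the tested genes had a log2 fold change as low or lower.

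S100A7 (psoriasin) and S100A9 (a subunit of calprotectin) are secreted antimicrobial proteins that mark psoriatic and healing epidermis. S100A7 had 169 and 145 counts with control siRNA and 127 and 102 with ALKBH5 siRNA. Its level fell from 9.26 ± 1.72 to 6.49 ± 0.43 CPM (SD, n = 2), with a log2 fold change of -0.50 (SE 0.16, adjusted p = 0.01 by edgeR). S100A9 had 335 and 302 counts with control siRNA and 290 and 250 with ALKBH5 siRNA. Its level fell from 18.8 ± 2.83 to 15.3 ± 0.24 CPM (SD, n = 2), with a log2 fold change of -0.29 (SE 0.11, adjusted p = 0.039 by edgeR). For both genes the groups did not overlap, but siControl replicate 1 stood above siControl replicate 2, with 10.5 against 8.05 CPM for S100A7 and 20.8 against 16.8 CPM for S100A9. Without siControl replicate 1 the log2 fold change was -0.31 for S100A7 (adjusted p = 0.23) and -0.12 for S100A9 (adjusted p = 0.55). Without siControl replicate 2 that of S100A9 was -0.44. The S100A9 call was also lost without either siALKBH5 library (adjusted p = 0.065 and 0.089), and DESeq2 called neither gene (adjusted p = 0.078 and 0.17).

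S100A8, the calprotectin partner of S100A9, was near the limit of detection. It had 32 and 34 counts with control siRNA and 41 and 36 with ALKBH5 siRNA, or 1.98 and 1.89 against 2.19 and 2.18 CPM. Both siALKBH5 values were above both siControl values, with a log2 fold change of 0.18 (SE 0.29, adjusted p = 0.68 by edgeR), so a change of this size was not detectable at this depth. Per kilobase of gene length, the ratio of S100A8 to S100A9 was 0.0548 and 0.0646 in siControl and 0.0811 and 0.0826 in siALKBH5. The ratio was higher in both siALKBH5 libraries, but it rests on the few S100A8 counts given above, and no test of it was run.

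S100A16 and S100A10 showed the largest rises. S100A16 is a widely expressed S100 protein. It had 510.5 and 517.2 CPM in siControl and 630.4 and 637.3 CPM in siALKBH5, with groups far apart for the spread within them. The log2 fold change was 0.30 (SE 0.02, adjusted p = 7.6e-13 by edgeR). S100A10, or p11, forms a tetramer with annexin A2 at the plasma membrane and no longer binds calcium. It had 501.5 and 493.2 CPM in siControl and 607.8 and 595.0 CPM in siALKBH5. The log2 fold change was 0.28 (SE 0.02, adjusted p = 1.5e-11 by edgeR). Of the tested genes, 17.0% had a log2 fold change as high as that of S100A16 or higher, and 18.6% as high as that of S100A10 or higher.

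S100A14, S100A2 and S100A4 rose less, and 29.5%, 26.4% and 32.7% of the tested genes had log2 fold changes as high or higher. S100A14, an epithelial S100 protein, had 1102.1 and 1144.0 CPM in siControl and 1237.2 and 1261.9 CPM in siALKBH5 (log2 fold change 0.15, SE 0.02, adjusted p = 1.7e-07 by edgeR). S100A2, a nuclear protein of basal keratinocytes, had 304.4 and 320.2 CPM in siControl and 346.8 and 363.1 CPM in siALKBH5 (log2 fold change 0.18, SE 0.03, adjusted p = 6e-06 by edgeR). For both genes the gap between the groups was wider than the gap within either. S100A4, which binds non-muscle myosin and is known from motile cells, had 128.7 and 127.8 CPM in siControl and 135.5 and 144.2 CPM in siALKBH5 (log2 fold change 0.12, SE 0.04, adjusted p = 0.013 by edgeR). The siALKBH5 libraries of S100A4 differed from each other by more than replicate 1 differed from the controls. Without siALKBH5 replicate 2 its log2 fold change was 0.08 (adjusted p = 0.22), without siControl replicate 2 it was 0.12 (adjusted p = 0.066), and DESeq2 gave an adjusted p of 0.067.

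S100A11 is an abundant S100 protein of the cornified envelope and a partner of annexin A1. It had 1059.8 and 1074.2 CPM in siControl and 1075.7 and 1104.7 CPM in siALKBH5. The groups were separate by less than the gap within either, and the log2 fold change of 0.03 (SE 0.02) did not pass the test (adjusted p = 0.24 by edgeR). When the trend of fold change with gene length was removed, it was 0.08 (adjusted p = 0.0029). None of the 10 genes had overlapping groups: 7 were above in both siALKBH5 libraries and 3 were below in both. Of all tested genes, 32.8% were above in both and 33.5% were below in both.

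**Figure D2:**
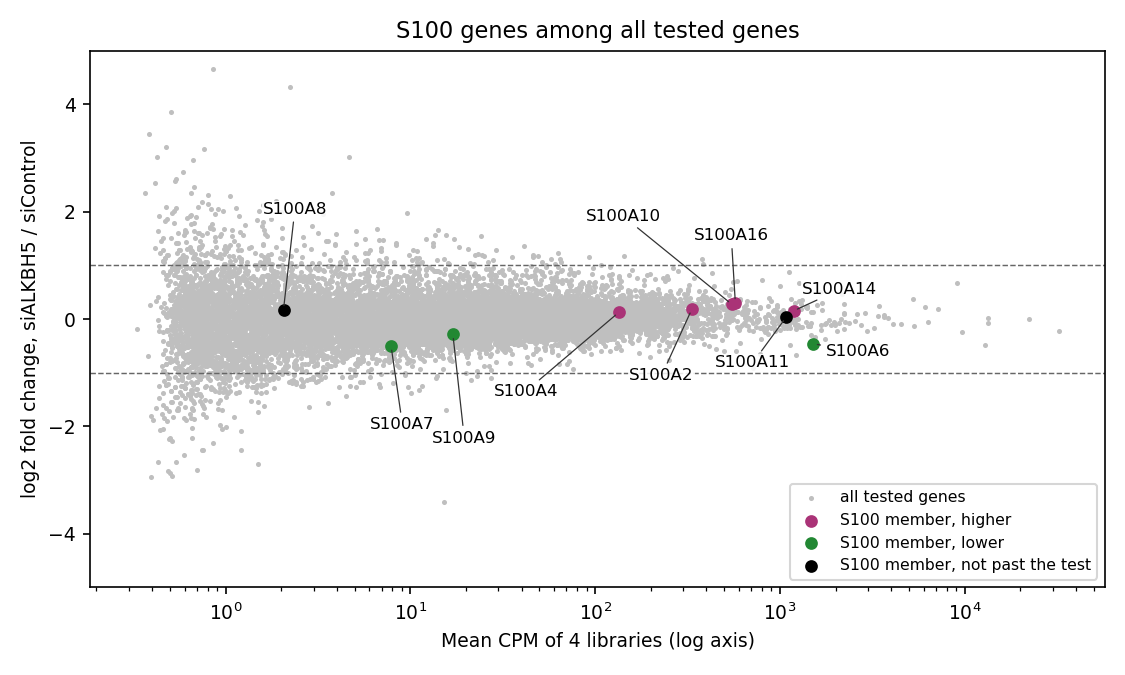
Log2 fold change (siALKBH5 over siControl) against mean CPM (log axis) for all 15075 tested genes in grey, with the 10 S100 genes in purple (higher), green (lower) and black (not past the test) and dashed lines at 1 and -1. All 10 lie between the dashed lines, and 7 lie at 100 CPM or above.

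The S100 genes together took nearly the same part of each library while their proportions shifted. Their summed counts were 0.543% and 0.551% of all counts in siControl and 0.528% and 0.537% in siALKBH5, with 95% Wilson intervals from 0.525% to 0.554% across the 4 libraries that cover counting error only. S100A6 made up 32.4% and 32.2% of the S100 counts in the siControl libraries and 23.7% and 23.8% in siALKBH5. Without S100A6 the other 9 genes summed to 3640 and 3703 CPM in siControl and 4058 and 4130 CPM in siALKBH5. The S100A6 share was thus lower in both siALKBH5 libraries, and the sum of the others was higher in both.

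**Figure D3:**
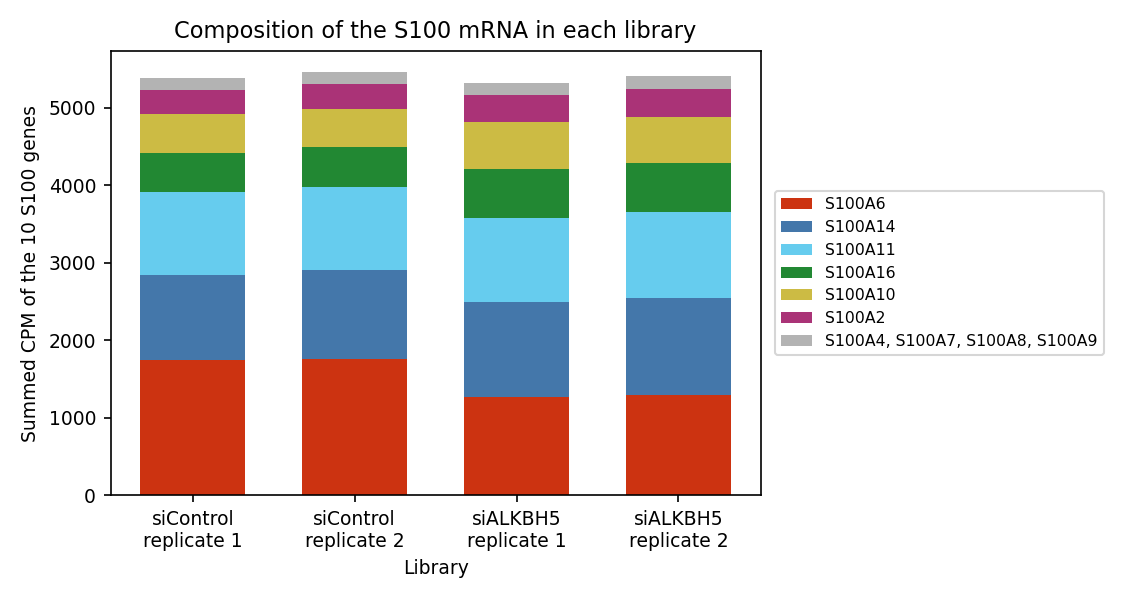
Summed CPM of the 10 S100 genes in each library as stacked bars from 0, with S100A6 in red at the base. The bars reach between 5322 and 5465 CPM, and the S100A6 segment is shorter in both siALKBH5 libraries.

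Levels between genes were compared per kilobase, as FPKM (fragments per kilobase of listed gene length relative to the same TMM-scaled library size). In siControl S100A6 was first with 1807 ± 10.5 FPKM, followed by S100A11 with 1569 ± 15.1, S100A14 with 879 ± 23.2, S100A10 with 322 ± 3.77, S100A16 with 302 ± 2.77 and S100A2 with 199 ± 7.11 FPKM (SD, n = 2). S100A4 had 125 ± 0.63, S100A9 32.5 ± 4.9, S100A7 17.3 ± 3.2 and S100A8 1.92 ± 0.07 FPKM (SD, n = 2). No neighbours in this order had overlapping libraries, although S100A10 and S100A16 differed only 1.07-fold. In siALKBH5 S100A11 was first with 1603 ± 30.1 FPKM and S100A6 second with 1314 ± 18.1 FPKM (SD, n = 2), and the order of the rest was the same. The first place depends on the length used. With the longest coding transcript of each gene, S100A6 stayed first in both groups, at 1.45 times S100A11 in siControl and 1.03 times in siALKBH5, and S100A16 came before S100A10. The change in the ratio of S100A6 to S100A11 between the groups does not depend on length: S100A6 had 1.65 and 1.64 counts per S100A11 count in siControl and 1.17 in both siALKBH5 libraries.

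All 10 genes lie on chromosome 1 (GRCh38), and changes in both directions lay close together. S100A10 (ENSG00000197747, chr1:151982915-151994390, minus strand) and S100A11 (ENSG00000163191, chr1:152032506-152047907, minus strand) lie 38.1 kb apart at one end of the interval. The other 8 genes begin 1309.9 kb further on. S100A9 (ENSG00000163220, chr1:153357854-153361027) is the only one on the plus strand. It is followed on the minus strand by S100A8 (ENSG00000143546, chr1:153390032-153391188), S100A7 (ENSG00000143556, chr1:153457744-153460701) and S100A6 (ENSG00000197956, chr1:153534599-153536244). S100A4 (ENSG00000196154, chr1:153543613-153550136), S100A2 (ENSG00000196754, chr1:153561108-153567890), S100A16 (ENSG00000188643, chr1:153606886-153613145) and S100A14 (ENSG00000189334, chr1:153614255-153616986) close the row. The 3 genes that fell thus lie next to each other but for S100A8, and S100A4, S100A2, S100A16 and S100A14 after them all rose. As given above, the calls of S100A4, S100A7 and S100A9 were lost in some settings. S100A6, which fell, and S100A4, which rose, are 7.37 kb apart with S100A5 between them, and S100A16 and S100A14, which both rose, are 1.11 kb apart.

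The interval from S100A10 to the last S100A gene holds 90 genes, of which 30 were tested. Of the 20 tested genes that were not among the 10, 3 were higher, 5 were lower and 12 did not pass the test, with a median log2 fold change of -0.11. The genes named here are those with the largest changes. TCHH (trichohyalin, of the hair follicle sheath) had 28.1 and 25.6 CPM in siControl and 11.7 and 15.1 CPM in siALKBH5 (log2 fold change -1.011, SE 0.11, adjusted p = 1.8e-09 by edgeR). SPRR1B, a cornified envelope precursor, fell by 0.68 on the log2 scale, and the antisense RNA FLG-AS1 fell by 0.50. S100A5 rose by 0.80 from 35 and 39 counts to 74 and 59, and the peptidoglycan recognition genes PGLYRP3 and PGLYRP4 rose by 0.44 and 0.36 on the log2 scale. The genes between the S100 genes thus also changed in both directions.

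**Figure D4:**
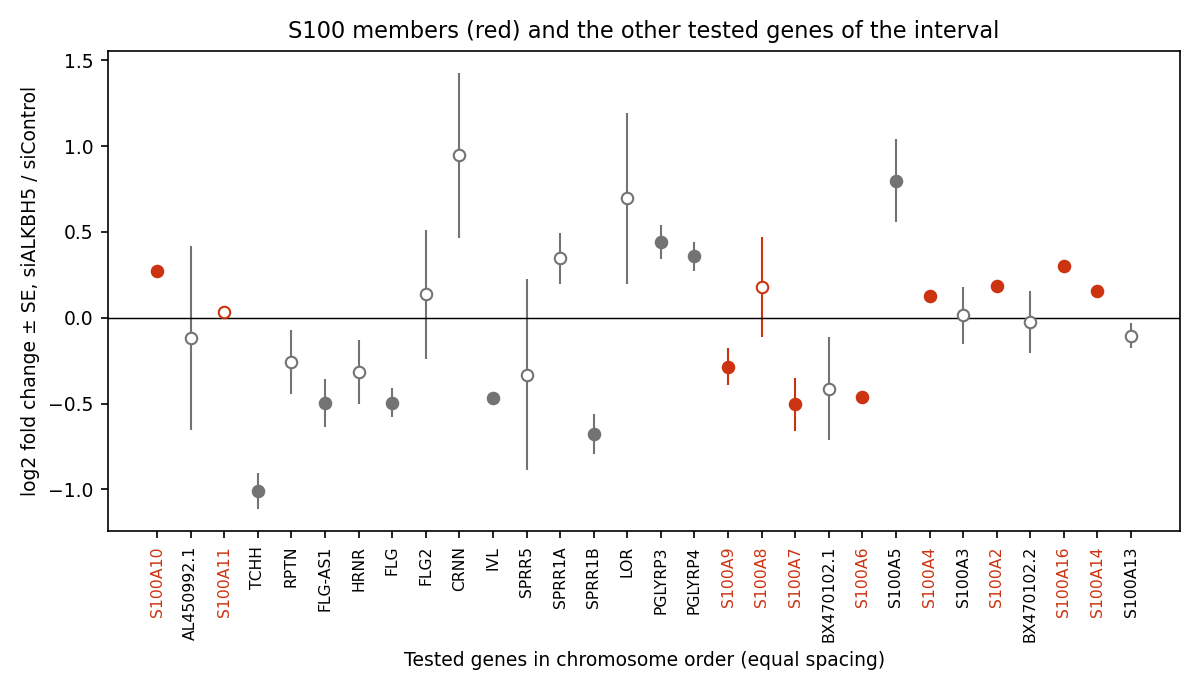
Log2 fold change ± SE of the 30 tested genes of the interval, in chromosome order with equal spacing, with the 10 S100 genes in red and the others in grey. Filled points passed the test (adjusted p under 0.05) and open points did not. S100A6 and S100A7 lie below -0.4, while S100A4, S100A2, S100A16 and S100A14 lie above 0.

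Overlapping genes carried few counts. S100A3 lies within S100A4 on the same strand and had 88 to 117 counts per library. BX470102.1, on the strand opposite S100A6, had 28 to 43 counts, and AL450992.1, opposite S100A11, had 8 to 12. The strand setting of the counting is not given in the sources used here, so reads from the overlaps on opposite strands could not be assigned with certainty. S100A3 and S100A4 share a strand, so strand cannot separate reads from their overlap under any setting. The near-identical S100A7A had 0 and 0 counts with control siRNA and 2 and 4 with ALKBH5 siRNA, and the pseudogenes S100A7P1, S100A11P1 and S100A11P2 had 0 in every library.

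The sequence before the start sites was read for all the S100 genes. RefSeq promoter windows (GRCh38.p14, 250 bases before to 50 after the start) were found for all 10 genes, 14 windows in all. The letters TATAA stood in a window of 6 genes, S100A4, S100A6, S100A7, S100A8, S100A9 and S100A14, with a copy between 28 and 31 bases before the start in each. Counted as windows, 7 of the 14 held TATAA on either strand, against 20.4% of 35116 promoter windows. This motif was added after the windows were seen. The longer TATAAA, which contains it, stood in windows of S100A4, S100A7, S100A8 and S100A9 (5 of 14 windows) and in 11.5% of all windows. GGGCGG stood in windows of S100A6, S100A9, S100A10, S100A11 and S100A16 (5 of 14 windows) and in 45.0% of all. CCAAT stood in those of S100A8 and S100A16 (2 of 14 windows, 34.6% of all), and TGANTCA in that of S100A2 (1 of 14, 7.71% of all). The 100 bases before the start are shown for the 3 genes that fell and for S100A14 and S100A10, which rose with and without TATAA. They are written in the direction of the gene, with TATAA on either strand and GGGCGG in capitals.
S100A6 (chr1:153535992-153536091, minus strand): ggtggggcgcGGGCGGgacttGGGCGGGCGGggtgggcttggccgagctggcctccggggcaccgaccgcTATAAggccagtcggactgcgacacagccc
S100A7 (chr1:153460652-153460751, minus strand): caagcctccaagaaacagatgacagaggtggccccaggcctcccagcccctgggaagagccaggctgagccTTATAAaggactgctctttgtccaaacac
S100A9 (chr1:153357754-153357853, plus strand): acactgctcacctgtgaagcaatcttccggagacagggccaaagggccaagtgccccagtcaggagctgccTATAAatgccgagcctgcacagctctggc
S100A14 (chr1:153616326-153616425, minus strand): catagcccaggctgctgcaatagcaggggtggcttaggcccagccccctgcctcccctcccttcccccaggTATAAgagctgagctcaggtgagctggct
S100A10 (chr1:151993860-151993959, minus strand): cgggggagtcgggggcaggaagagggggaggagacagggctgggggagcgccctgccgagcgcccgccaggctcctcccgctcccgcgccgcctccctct
The genes that fell, S100A6, S100A7 and S100A9, have TATAA in this stretch, and so have S100A14 and S100A4, which rose. These letters thus stood before genes of both directions, although the calls of S100A4, S100A7 and S100A9 were lost in some settings.

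The annexin partners of S100A10 and S100A11 were both higher, while S100A11 itself did not pass the test. ANXA2, which holds S100A10 in a tetramer, had 2000.5 and 1999.8 CPM in siControl and 2418.9 and 2451.1 CPM in siALKBH5 (log2 fold change 0.28, SE 0.02, adjusted p = 7.9e-16 by edgeR). S100A10 per ANXA2, per kilobase, was 1.43 and 1.41 in siControl and 1.44 and 1.39 in siALKBH5, so the libraries of the groups overlapped. ANXA1, the partner of S100A11, rose from 588 ± 2.82 to 692 ± 2.03 CPM (SD, n = 2; log2 fold change 0.23, SE 0.02, adjusted p = 1.6e-10 by edgeR). S100A11 per ANXA1, per kilobase, was 12.1 and 12.2 in siControl and 10.5 and 10.7 in siALKBH5. Of 16 tested binding partners, 9 were higher, 4 were lower and 3 did not pass the test, with a median log2 fold change of 0.11. Of all tested genes 19.3% were higher and 17.3% lower. Many of these partners are abundant, and at a mean of at least 100 CPM the shares were 43.5% and 27.0%. HLTF, a chromatin helicase, rose by 0.81 from 49 and 61 counts to 99 and 100, and the phosphatase PPP5C rose by 0.32. NCL (nucleolin) fell by 0.24, the co-chaperone SUGT1 fell by 0.22, and CACYBP, the calcyclin-binding protein, fell by 0.13 on the log2 scale (adjusted p = 0.046 by edgeR). CACYBP had 79.4 and 74.4 CPM in siControl and 66.6 and 73.6 CPM in siALKBH5, so its groups were barely apart.

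Of 6 tested receptors for secreted S100 proteins, 2 were higher and 4 did not pass the test, with a median log2 fold change of -0.07. Over all tested genes 9552 of 15075 did not pass. BSG (basigin), a receptor of S100A9, rose from 599 ± 0.38 to 659 ± 0.98 CPM (SD, n = 2; log2 fold change 0.14, SE 0.02, adjusted p = 6.2e-06 by edgeR). MCAM was the other, with 9 and 8 counts with control siRNA and 20 and 21 with ALKBH5 siRNA (adjusted p = 0.042 by edgeR). MCAM was named after its values were seen. AGER, the receptor for advanced glycation end products, had 31 to 41 counts per library and did not pass the test (adjusted p = 0.55 by edgeR).

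Among 16 cytokine receptors and regulators that are known to induce S100A7, S100A8 and S100A9, 3 were higher, 5 were lower and 8 did not pass the test, with a median log2 fold change of -0.03. The oncostatin M receptor OSMR rose by 0.36, the transcription factor CEBPB by 0.19 and EGFR by 0.14 on the log2 scale. The receptors IL1R1 and IL20RA fell by 0.62 and 0.36, and NFKBIZ, a regulator of the interleukin-17 response, fell by 0.29. The list therefore held changes in both directions while S100A7 and S100A9 fell.

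Other genes of the S100 type were few in these cells. Of 11 other S100 genes 4 were tested, and 2 were higher, none was lower and 2 did not pass (median log2 fold change 0.13). S100P had 1038 and 1138 counts with control siRNA and 1404 and 1253 with ALKBH5 siRNA and rose by 0.24 (SE 0.05, adjusted p = 2e-04 by edgeR), and S100A5 is given above. S100A13 and S100A3 did not pass the test (adjusted p = 0.27 and 0.96). Of the fused-type S100 genes, which join the S100 domain to long repeats and build the cornified layer, 6 of 7 were tested, none was higher, 2 were lower and 4 did not pass (median log2 fold change -0.29). FLG (filaggrin) fell from 518 and 504 counts to 403 and 346 (log2 fold change -0.49, SE 0.09, adjusted p = 2.2e-05 by edgeR), and TCHH is given above. The 4 that did not pass had log2 fold changes of -0.32 (HRNR), -0.26 (RPTN), 0.14 (FLG2) and 0.95 (CRNN), the last from 8 and 10 counts against 20 and 16.

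Markers of keratinocyte state also changed in both directions, and their part in these results was not tested. Of 8 keratinocyte markers 4 were higher and 3 were lower, and their summed level was 16193 to 16580 CPM in siControl and 21953 to 22030 CPM in siALKBH5. Among all tested genes with a mean of at least 100 CPM, 43.5% were higher and 27.0% were lower. KRT5, KRT6A and KRT14 rose by 0.68, 0.62 and 0.22 on the log2 scale, while TP63, KRT17 and ITGA6 fell by 0.09, 0.08 and 0.07. Of 5 suprabasal markers 1 was higher and 2 were lower, and their sum was 1723 to 1742 CPM in siControl and 1713 to 1743 CPM in siALKBH5. IVL (involucrin) fell from 451 ± 0.68 to 326 ± 1.64 CPM and KRT10 from 334 ± 5.74 to 273 ± 1.8 CPM, while KRT1 rose from 872 ± 2.0 to 1048 ± 21.3 CPM (SD, n = 2).

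Markers of other cell types were also counted. Of 5 myeloid markers, the cells in which S100A8 and S100A9 are most abundant, only CD14 was tested. It had 34 and 50 counts with control siRNA and 74 and 61 with ALKBH5 siRNA (log2 fold change 0.64, adjusted p = 0.034 by edgeR), and the list summed to 2.35 to 3.55 CPM in siControl and 3.88 to 4.54 CPM in siALKBH5. PTPRC had 0 to 2 counts and LYZ 0 to 1. Of 5 fibroblast markers 2 were tested and DCN was lower (52 and 71 counts against 24 and 29), with a sum of 17.9 to 21.1 CPM over all libraries. Of 4 melanocyte markers 1 was tested and did not pass, with a sum of 2.72 to 3.88 CPM. Of 3 endothelial markers VWF was higher and CDH5 was lower, with a sum of 32.5 to 35.4 CPM. PDGFRB, COL1A2 and TYR were at 0 in every library.

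**Figure D5:**
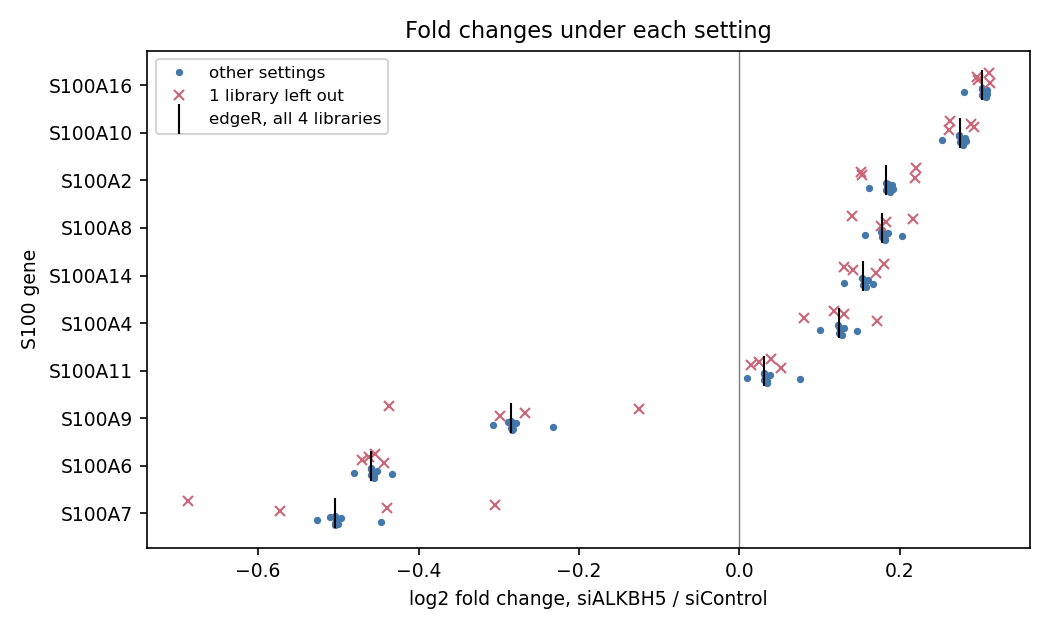
Log2 fold change (siALKBH5 over siControl) of each S100 gene with all 4 libraries (black bars), under other settings (blue points) and after removal of any 1 library (red crosses). Every gene stays on its side of 0, and S100A7 and S100A9 spread most when a library is left out.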

How the data were processed

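RNA-seq of 4 HaCaT libraries was analysed (2 siControl, 2 siALKBH5). The submitters' notes name CASAVA, HISAT2 2.0.5, featureCounts 1.5.0-p3, DESeq2 1.20.0 and hg38. The authors deposited raw counts per gene without normalization, in 2 tables that each pair 1 siControl with 1 siALKBH5 library. The FPKM that the authors deposited are relative to a separate scaling of each table and served only as a check. The fold changes and p-values in the tables compare 1 library with 1 and were not used.

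Counts were joined by gene ID and tested in edgeR 4.0.16 under R 4.3.3 (filterByExpr, TMM, glmQLFit, glmQLFTest, no covariates), with Benjamini-Hochberg adjustment. The fit was tested on simulated data with a spread set close to that of these libraries. It recovered 86 of 100 genes with a log2 fold change of 1 in size and 64 of 99 with 0.4, with 7 false calls. Alternatives were DESeq2 1.42.0, its size factors, library size only, no mitochondrial genes, no filter, a filter at 10 mean counts, removal of the length trend, a minimum fold of 1.2 (glmTreat), a replicate block and leaving out each library. Genes named outside the 10 are ALKBH5, ANXA1, ANXA2, BSG and, per list and for the interval, up to 3 higher and 3 lower with the largest change, a mean of at least 1 CPM and the same direction in both replicates; others give counts of cell-type markers, overlaps or calls not passed. The S100 genes and lists were chosen with earlier results of these data known. Amino acid sequences were not used here. A gene that the rule names among the binding partners is not reported here.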

Additional observations from a re-analysis of the deposited data

How the results depend on the processing

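No fold change of an S100 gene changed sign. Over the S100 genes and ALKBH5, 124 values under an alternative stayed on the same side of the threshold, 18 lost the call and 1 gained it. A minimum fold of 1.2 (glmTreat) kept S100A6 alone: the members past the test became 0 higher and 1 lower, and all genes 883 higher and 473 lower. Under it adjusted p was 1.0 for S100A2 (log2 fold change 0.183), S100A4 (0.124) and S100A14 (0.154), 0.15 for S100A7 (-0.504), 0.66 for S100A9 (-0.285), 0.52 for S100A10 (0.275) and 0.11 for S100A16 (0.303). With DESeq2 the calls of S100A4 (0.128), S100A7 (-0.504) and S100A9 (-0.284) were lost, which left 1 S100 gene lower, and 1431 of all genes were lower against 2610. S100A9 was also lost without a filter (-0.278, adjusted p = 0.057) and with the length trend removed (-0.232, adjusted p = 0.097), which made S100A11 pass (0.076, adjusted p = 0.0029). With a change of 1 or more required on the log2 scale, 0 S100 genes were higher and 0 lower, and 244 and 196 of all genes. With the longest transcript length, chosen after seeing the data, S100A6 over S100A11 was 1.45 in siControl and 1.03 in siALKBH5, against 1.15 and 0.82, so the order of the pair in siALKBH5 depends on the length. As ratios of counts, S100A8 to S100A9 was 0.104 in siControl and 0.143 in siALKBH5, and S100A10 to ANXA2 was 0.249 and 0.247, because the length is left out. For the other changes the cause was not tested.

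Leaving out each library in turn gave log2 fold changes of -0.471 to -0.443 for S100A6, -0.688 to -0.305 for S100A7, -0.437 to -0.125 for S100A9, 0.081 to 0.171 for S100A4, 0.151 to 0.22 for S100A2, 0.13 to 0.18 for S100A14, 0.261 to 0.292 for S100A10, 0.296 to 0.312 for S100A16, 0.014 to 0.052 for S100A11 and 0.141 to 0.216 for S100A8. The S100 genes past the test and lower were 1 to 3, with 1 left without siControl replicate 1. A group of 1 library was then assumed to vary like the other.

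Deviations of libraries with the same replicate number were nearly uncorrelated (0.0337 over 15075 genes). Genes with low counts weigh as much as others in that value, so it cannot exclude pairing. With the replicate block 5 S100 genes were higher and 3 were lower, as without it, S100A9 had an adjusted p of 0.017, and 3091 of all genes were higher and 2831 lower. Replicates differed beyond sampling noise (chi-square per degree of freedom 1.71 and 1.81), so no library was the same counts deposited again; this does not show whether the cultures were separate. Counts of 335 or fewer per library limit S100A7, S100A8 and S100A9.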
